A study of Mus musculus with 24 samples.

Results

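The genes described here are 10 effector genes of natural killer (NK) cells and cytotoxic T lymphocytes, Gzma, Gzmb, Prf1, Nkg7, Ncr1, Klrk1, Klrb1c, Klrd1, Klre1 and Eomes. They were taken by their symbol from the expression file of each sample, and all 10 were found in all 24 files, among 21671 genes per file. No value of the files was used to choose them, although earlier results of these data were known. RNA had been sequenced from the spleen of C57/Bl6 mice of 8 weeks of age, which was split with magnetic beads against the B cell antigen B220. B cells were the fraction that the beads retained, and non-B cells were the rest of the organ after lysis of red cells. The mice were Trp53+/+ or lacked p53 in all cells (Trp53-/-), and were either unstressed or taken 4 h after whole-body ionizing radiation (IR) at 7 Gy. Each of the 4 groups of Trp53+/+ samples (B or non-B, unstressed or irradiated) had 4 samples, and each of the 4 groups of Trp53-/- samples had 2. The study's methods count these as mice, but the labels do not say which B and non-B samples came from the same spleen.

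NK cells and cytotoxic T cells kill target cells by releasing granules onto them. The granules carry perforin, which opens the target membrane, and granzymes, the proteases that enter the target and start its death. NK cells decide whether to release them by the balance of activating and inhibitory surface receptors, many of which belong to the lectin-like family encoded in the NK gene complex. In the mouse spleen NK cells are a minority of the cells left after removal of B cells, the most abundant of which are T cells, so non-B cells are not a purified NK population.

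The 10 genes fell into 3 roles. Gzma and Gzmb encode granzymes, Prf1 encodes perforin, and Nkg7 encodes a membrane protein of the cytotoxic granule. Ncr1 (NKp46) and Klrk1 (NKG2D) encode activating receptors, Klrb1c encodes NK1.1, the antigen by which NK cells of this strain are commonly recognised, Klrd1 encodes CD94, the partner chain of the NKG2 receptors, and Klre1 encodes a further lectin-like receptor of NK cells. Eomes encodes a T-box transcription factor of NK and effector CD8 T cells. The annotation of NCBIM37, the assembly behind mm9, places 4 of the receptor genes within 845 kb of chromosome 6, in the NK gene complex. Klrb1c lies at chr6:128728503-128739233, and Klre1 (chr6:129527911-129535842), Klrd1 (chr6:129541800-129548793) and Klrk1 (chr6:129560341-129573882) lie together within 46.0 kb. No annotated gene overlapped any of the 10, but Klrb1c has close relatives in Klrb1a and Klrb1b, and how reads matching several genes were counted is not given in the sources used here.

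The sequence before the start sites of the 10 genes was searched for cores bound by factors of the lymphoid lineage. RefSeq windows of 250 bases before to 50 bases after the start were given on GRCm38.p6 for 9 of the 10 genes, and each was matched to a unique place of NCBIM37. Both strands were searched for the letters TGTGGTT (RUNX core), TCACACC (T-box core) and AGGAAGT (ETS core), none of which contains another. The RUNX core was found for 5 of the 9 genes, against 5.27% of 32851 windows of the same length over the genome. The T-box core was found for Nkg7 alone, against 3.98% of the windows, and the ETS core for Prf1 alone, at 2 places, against 9.35%. These matches are descriptions of letters and not of binding, and their part in the levels of the genes was not tested. The 5 stretches with the RUNX core are shown 5′ to 3′ on the strand of the gene, with the core in capitals (for Gzma the core lies on the opposite strand and reads as its complement).
Klre1, chr6:129527991-129528019, + strand: tgtgtttaagcTGTGGTTccagagagtca
Klrk1, chr6:129573994-129574022, - strand: gatagctgtgcTGTGGTTgtgtgggggtt
Ncr1, chr7:4289130-4289158, + strand: tagatccaaaaTGTGGTTaaatgtgttat
Gzma, chr13:113891223-113891251, - strand: gagaagaacaaAACCACAtcctttgcact
Gzmb, chr14:56881188-56881216, - strand: gtgggttctgcTGTGGTTacttcatgatt
The core began 229 bases before the RefSeq start of Klre1, 129 before that of Klrk1, 176 before the nearer of 2 starts of Ncr1, 51 before that of Gzma and 34 before that of Gzmb. In the GENCODE annotation of NCBIM37 the Klre1 stretch lies in the untranslated part of a first exon that starts further upstream, while the other 4 stretches overlap no annotated gene.

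Values were RPKM, in which the reads of a gene are scaled to its length in kilobases and to the library's number of reads on exons, with duplicated reads removed. The estimated depth was between 4620000 and 10890000 reads per sample, and none of the 10 genes was at 0 in any sample, their values ranging from 1.44 to 115.8 RPKM. Removal of duplicates presses down the highest values, and the largest value of any gene in a sample was between 157.2 and 307.4 RPKM. In 5 of the 8 irradiated Trp53+/+ libraries, between 24.7% and 51.3% of 1440 olfactory and vomeronasal receptor genes were above 0, against 5.42% to 15.97% in the other 19 libraries. These 5 libraries stand apart. They are replicates 1, 3 and 4 of the irradiated Trp53+/+ non-B samples and 2 of the irradiated Trp53+/+ B samples. Some calls of other markers are given from the fits with all libraries alone. Those among the 10 genes are given with and without these libraries. Leaving them out keeps 1 irradiated Trp53+/+ non-B sample, replicate 2, which is then assumed to vary like the other groups, and 2.35% in place of 9.85% of all genes were called for IR in those cells. The labels were checked with p53 and its known targets. Trp53 itself was at 43.4 to 49.5 RPKM in unstressed Trp53+/+ non-B samples and at 23.97 and 25.04 RPKM in the Trp53-/- ones, so it was lower but not absent, and after IR it was at 35.03 to 38.6 and at 34.6 and 36.4 RPKM. Cdkn1a, the cell cycle inhibitor induced by p53, went from 2.85–5.87 to 69.6–88.3 RPKM with IR in Trp53+/+ non-B samples and was at 2.63 RPKM or less in all Trp53-/- samples. Mdm2, the p53 ubiquitin ligase, was at 30.4–33.2 and at 70.8–73.4 RPKM in the same Trp53+/+ samples, and at 28.8–30.7 RPKM in Trp53-/- non-B samples.

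The question of where these genes were expressed was addressed first, in unstressed Trp53+/+ cells. All 10 were lower in B than in non-B cells, by 2.37-fold for Gzma to 7.51-fold for Gzmb. In non-B cells Nkg7 had the highest level per length, with 80.0, 77.7, 91.5 and 115.8 RPKM in replicates 1 to 4, and Gzma followed with 55.1, 56.8, 76.5 and 76.3 RPKM. The ranges of these 2 genes did not overlap, but those of all further neighbours in the order did, which was Klrd1 (mean 58.0 RPKM), Ncr1 (52.6), Prf1 (49.4), Klrk1 (45.5), Klre1 (32.4), Klrb1c (29.9), Gzmb (28.1) and Eomes (20.2). In B cells Gzma came first, with 30.9, 19.5, 30.9 and 29.8 RPKM, and exceeded Nkg7 (17.8, 13.8, 17.9 and 22.0 RPKM) in all 4 samples. Gzmb, at 4.39, 1.81, 3.52 and 3.97 RPKM in B cells, and Eomes, at 2.63, 1.99, 2.29 and 3.99 RPKM, were the lowest there. Klrb1c and Gzmb were the only neighbours in the order of B cells whose ranges did not overlap, and the 4 B samples of every gene lay below its 4 non-B samples.

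**Figure D1:**
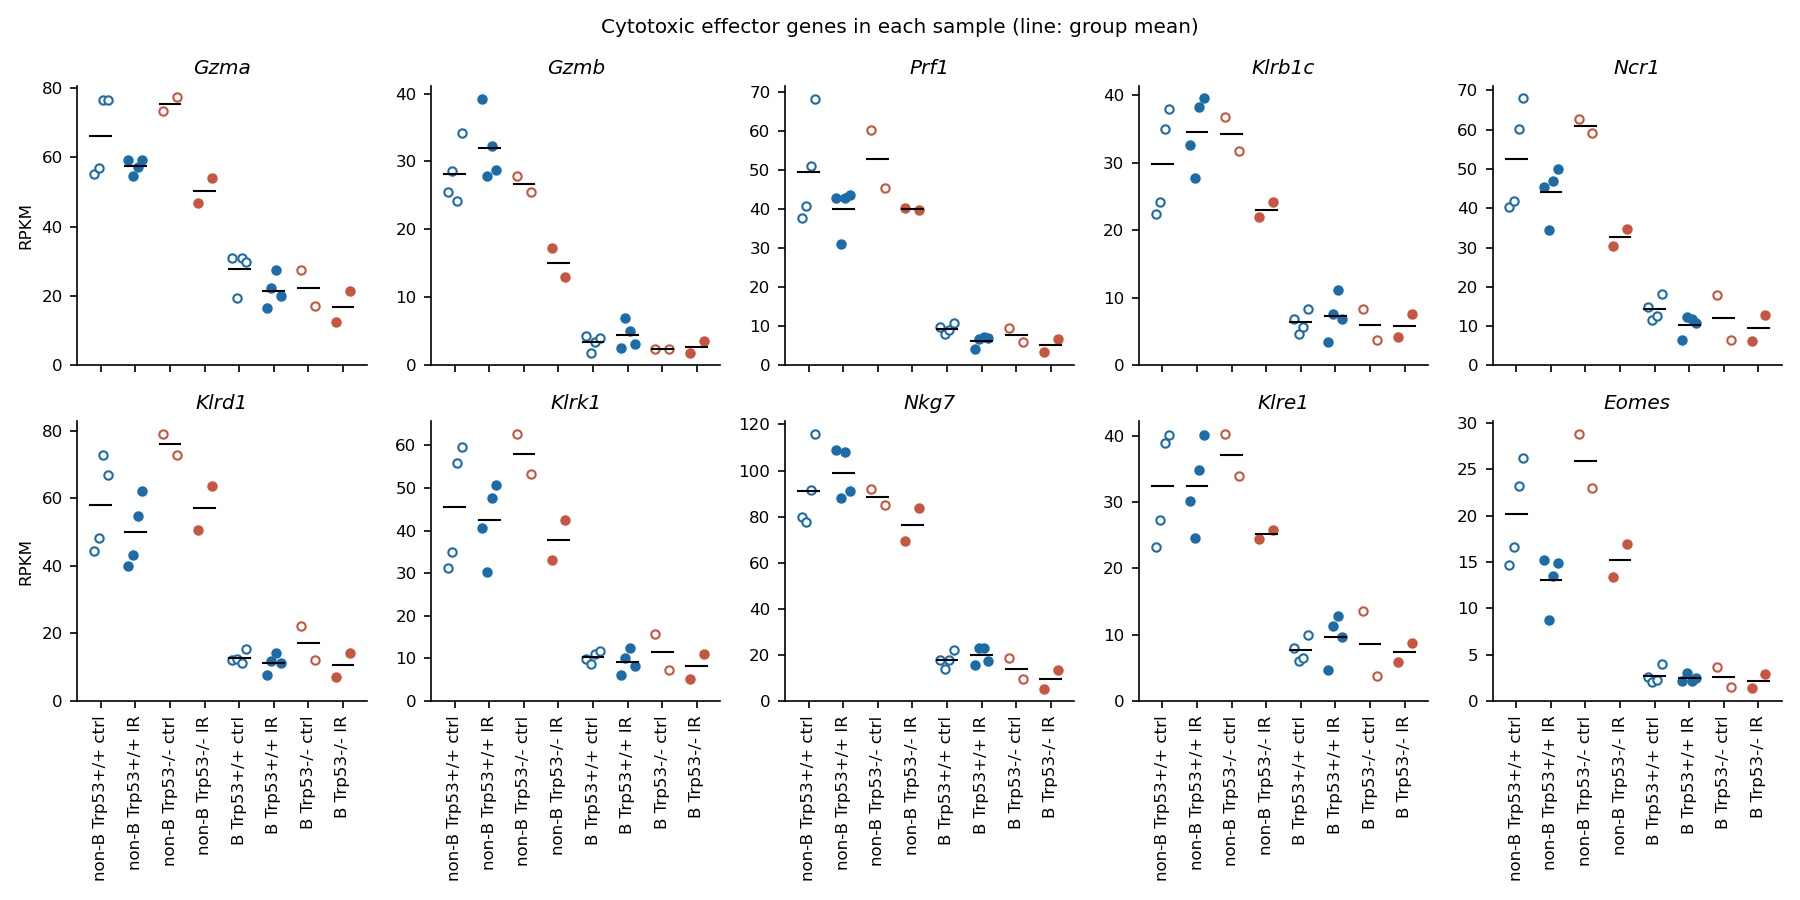
RPKM (linear axis from 0) of the 10 genes in every sample of the 8 groups, with 1 point per sample, open for unstressed (ctrl) and filled for irradiated (IR), blue for Trp53+/+ and red for Trp53-/-, and a line at the group mean. B samples lie well below non-B samples for each gene, and in Trp53-/- non-B cells both irradiated points lie below both unstressed points in all 10 panels.

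The difference between cell types passed the test for 10 of 10 genes, all lower in B cells (limma with Benjamini-Hochberg adjusted p below 0.05, and a log2 change beyond 0.58 in size), where 17.2% of the 14598 genes tested were called lower. On the scale of log2(RPKM + 0.5), the difference was -1.25 ± 0.16 (SE, n = 4 against 4) for Gzma, with an adjusted p of 1.11e-05, and -2.91 ± 0.25 for Gzmb, with an adjusted p of 1.68e-07. The median over the 10 genes was -2.12, against 0 for all genes tested. In bulk RNA, fewer cells of a type and less RNA per cell cannot be told apart, here and in all results that follow.

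The fractions carried the markers of their labels, but neither was pure. All 8 B cell markers were higher in B cells (median log2 difference 1.38), yet their summed level in unstressed Trp53+/+ non-B samples was still 320.3 to 512.7 RPKM, against 955.7 to 1119 RPKM in B samples. All 13 T cell markers were lower in B cells, with a median of -3.20, and their summed level there was 89.5 to 105.9 RPKM, against 613.4 to 902.4 RPKM in non-B samples. The differences of the effector genes were thus smaller in size than the median T cell marker for all 10, and they overlapped the T cell markers in range (-4.15 to -1.64). Among genes of related function, 28 of 34 tested NK receptors and adaptors were lower in B cells and none was higher. Of 17 other genes of granules and death ligands 11 were lower and 1, the granzyme-activating protease gene Ctsc, was higher (0.69; it is outside the rule for named genes and was picked after its value was seen). All 9 chemokine and migration genes and 6 of 10 other transcription factors were lower, and none of these was higher.

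**Figure D2:**
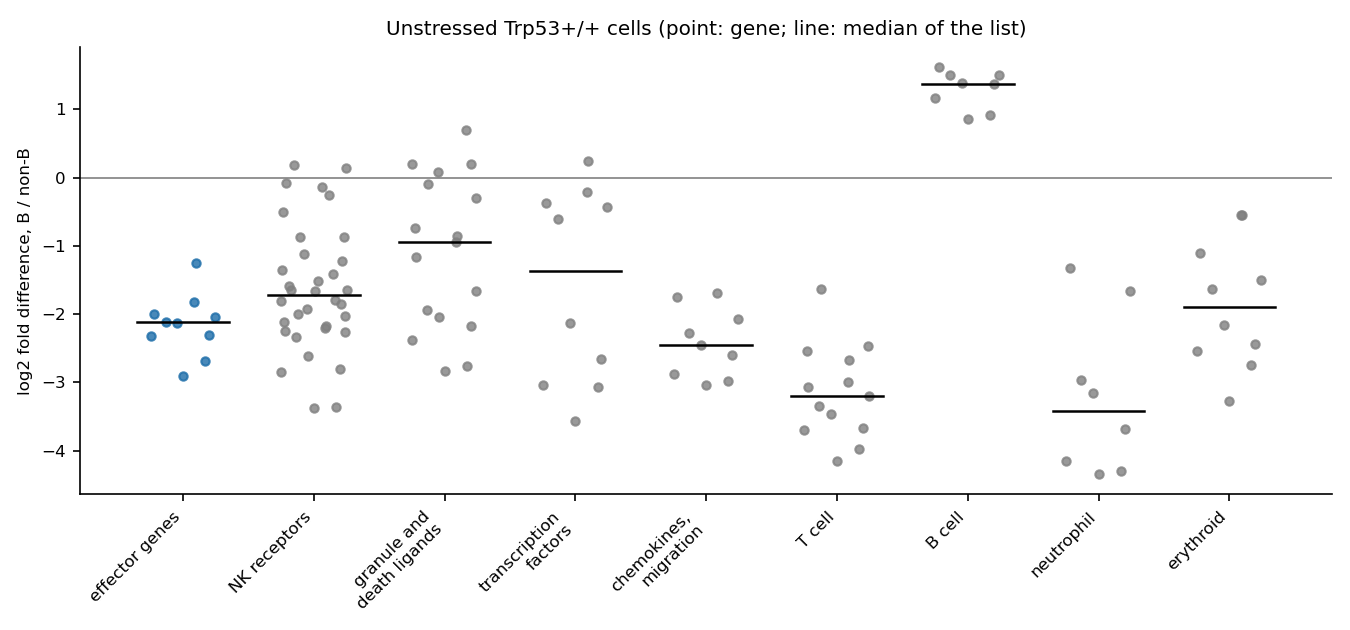
Log2 fold difference between B and non-B cells in unstressed Trp53+/+ mice for each gene tested (points), by list, with a line at the median of each list. The 10 effector genes lie between -2.91 and -1.25, the T cell markers between -4.15 and -1.64, and of the 9 lists shown the B cell markers alone lie wholly above 0.

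The response to IR was then asked in Trp53+/+ non-B cells. None of the 10 genes passed the test, where 9.85% of 14018 genes were called. No gene had its 4 irradiated samples below its 4 unstressed samples, a pattern that 12.1% of all genes showed, or above them. The log2 fold changes ran from -0.60 for Eomes to 0.23 for Klrb1c, with 6 below and 4 above 0 and a median of -0.13, against -0.03 over all genes. In the 1 irradiated sample left without those that stood apart, 9 were below 0, with a median of -0.37, and none was called. By limma, 2615 genes passed on adjusted p alone, without the fold threshold, and none of the 10 was among them. At an unadjusted p under 0.05, 1 of the 10 passed, Eomes, and the share of all genes at this threshold is not given here.

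Eomes came nearest to a call. It was at 14.7, 16.6, 23.2 and 26.3 RPKM in the unstressed samples and at 15.3, 8.69, 13.5 and 14.9 RPKM in the irradiated ones. The groups overlapped, since the irradiated replicate 1 exceeded the unstressed replicate 1. The log2 fold change was -0.60 ± 0.21, with an adjusted p of 0.0687 (limma, n = 4 against 4). The labels do not say that equal replicate numbers pair these samples. With the replicate number as a block that joins same-numbered samples of both genotypes Eomes was called (-0.60, adjusted p = 0.0402). With the block set within each genotype, a choice made after seeing the data, it was not called (-0.60, adjusted p = 0.0539). It was called without the unstressed replicate 1 (-0.74, adjusted p = 0.0397), over a range of adjusted p from 0.0213 to 0.299 in all settings tried. Without the libraries that stood apart it was -1.13 with an adjusted p of 0.113.

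The other members of each role were within the spread of their replicates. The granule genes went both ways, with log2 fold changes of 0.19 ± 0.14 for Gzmb, 0.13 ± 0.13 for Nkg7, -0.18 ± 0.11 for Gzma and -0.27 ± 0.18 for Prf1. Irradiated Gzma samples were close together, at 54.7 to 59.3 RPKM, while unstressed ones spread from 55.1 to 76.5 RPKM. The receptors lay between -0.23 ± 0.17 for Ncr1 and 0.23 ± 0.17 for Klrb1c, with Klre1 at 0.02 ± 0.19. A large part of this spread lay in the unstressed samples, where replicates 1 and 2 were below replicates 3 and 4 for 9 of the 10 genes, all but Gzmb. The same held for 13 of 13 T cell markers, while 10 of 10 erythroid and 8 of 8 neutrophil markers were higher in replicates 1 and 2. The summed erythroid level was 522.7 and 503.9 RPKM in these and 167.3 and 203.5 RPKM in replicates 3 and 4, and its part in the levels of the effector genes was not tested. Within replicates 1 and 2, none of the 10 genes was called for IR, and within replicates 3 and 4 Eomes was (-0.78, adjusted p = 0.0213).

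In Trp53-/- non-B cells, all 10 genes had both irradiated samples below both unstressed samples, a pattern shown by 25.3% of all genes at 2 samples against 2. The log2 fold changes were all negative, from -0.21 ± 0.18 for Nkg7 to -0.89 ± 0.24 for Ncr1, with a median of -0.57 against -0.02 over all genes. None passed the test by limma, where 0.442% of 14018 genes were called, and the lowest adjusted p was that of Gzmb, 0.0882. This background of 62 genes was 0 without either unstressed Trp53-/- library or without the irradiated Trp53-/- replicate 1. Since the genes varied together over the samples, the 10 are not 10 independent observations. At an unadjusted p under 0.05, 5 of the 10 passed, Ncr1, Gzmb, Gzma, Eomes and Klrb1c. The share of all genes at this threshold is not given here, so the 5 are not set against a background.

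Ncr1, the receptor gene with the log2 fold change largest in size, was at 62.7 and 59.1 RPKM in unstressed Trp53-/- samples and at 30.4 and 34.8 RPKM in irradiated ones. In Trp53+/+ samples it was at 40.3, 41.8, 60.2 and 68.0 RPKM before and at 45.4, 34.4, 47.0 and 49.9 RPKM after IR. The irradiated Trp53-/- samples were thus near the lowest of the Trp53+/+ samples, and the unstressed Trp53-/- samples near the highest. Ncr1 was called for IR in Trp53-/- cells with the Trp53+/+ replicates 3 and 4 alone in the fit (-0.89, adjusted p = 0.0246). It was also called with the block of crossed Trp53-/- numbers (-0.89, adjusted p = 0.0477), a choice made after seeing the data. Same-numbered Trp53-/- samples deviated oppositely, so crossing the numbers makes pairs that deviate together, and this call is no separate support.

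**Figure D3:**
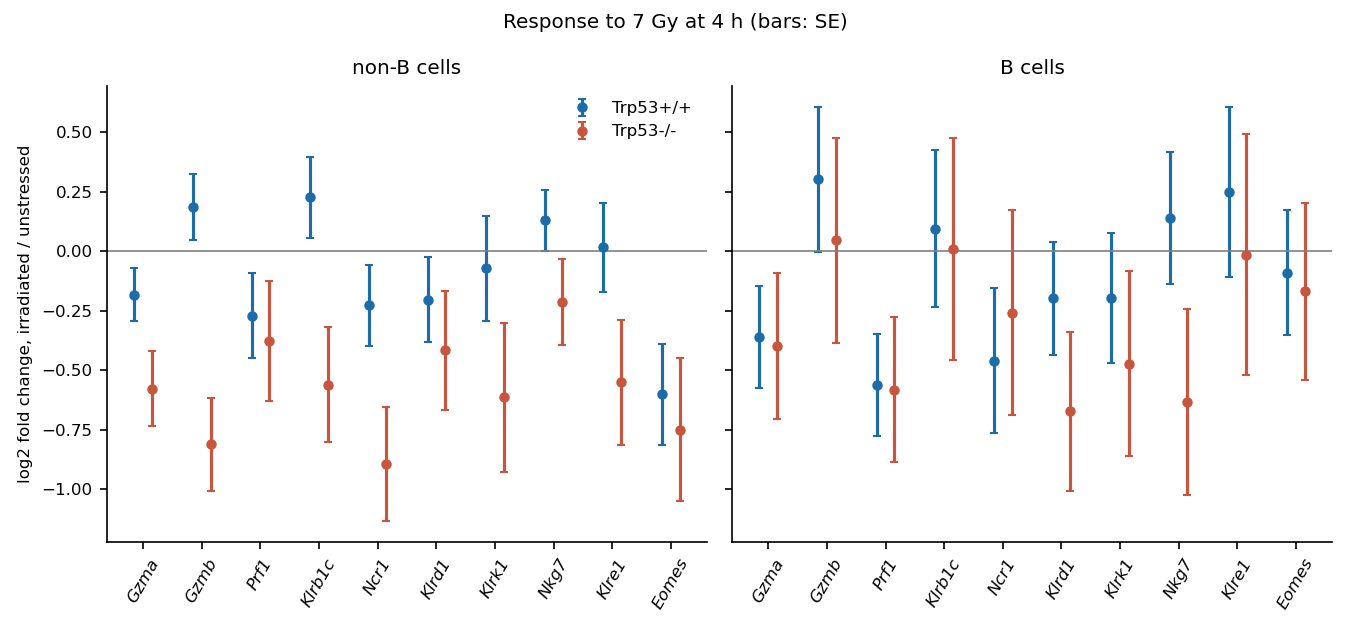
Log2 fold change on the scale of log2(RPKM + 0.5) between irradiated and unstressed samples, with SE bars, for each gene in non-B cells (left) and B cells (right), blue for Trp53+/+ and red for Trp53-/-. In non-B cells the red points lie below the blue point of the same gene for all 10 genes, by 0.11 for Prf1 to 1.00 for Gzmb, and of these differences that of Gzmb alone passed the test.

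Whether the response differed with p53 was tested as the difference of both responses in non-B cells. It was positive for all 10 genes (Trp53+/+ minus Trp53-/-; median 0.47 against -0.02 over all genes) and passed the test for 1 of 10, Gzmb, where 6.55% of 14018 genes were called. Leaving out the libraries that stood apart, it was positive for 8, with a median of 0.19, and none passed, where 1.4% of all genes did. Gzmb, the granzyme that cleaves caspases, was at 25.5, 28.6, 24.1 and 34.2 RPKM in unstressed and at 39.2, 27.9, 32.3 and 28.8 RPKM in irradiated Trp53+/+ samples. It was at 27.9 and 25.5 RPKM in unstressed and at 17.3 and 13.02 RPKM in irradiated Trp53-/- samples. Both irradiated Trp53-/- samples lay below all 10 others, while the unstressed samples of both genotypes overlapped.

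The difference of the Gzmb responses was 1.00 ± 0.24 on the log2 scale, with an adjusted p of 0.0296 (limma, n = 4 and 2 per group). The call was lost without any 1 of 4 libraries: the unstressed Trp53-/- replicate 1 (0.94, adjusted p = 0.0945) or 2 (1.06, adjusted p = 0.0853), the irradiated Trp53-/- replicate 2 (0.80, adjusted p = 0.118) or the irradiated Trp53+/+ replicate 3 (0.99, adjusted p = 0.057). It was also lost without the 3 non-B libraries that stood apart (0.82, adjusted p = 0.158, with 1 irradiated Trp53+/+ sample left) or with their share as a covariate (0.96, adjusted p = 0.0973). Beside these, the block within each genotype (1.00, adjusted p = 0.0647), the Trp53+/+ replicates 3 and 4 alone (0.90, adjusted p = 0.0836) and a fold threshold of 1 left it uncalled, and adjusted p ran from 0.0215 to 0.158 over all settings tried. Klrb1c had the next largest difference by test, 0.79 ± 0.29 with an adjusted p of 0.123, and with the replicate block it was called as well (0.79, adjusted p = 0.0276, or 0.0494 with the block within each genotype). It was 0.49 with an adjusted p of 0.484 without the libraries that stood apart.

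The genotypes were also compared at each state. In unstressed non-B cells none of the 10 genes was called, where 0.0428% of the genes were called, and the log2 differences (Trp53-/- minus Trp53+/+) ran from -0.06 for Gzmb to 0.42 for Klrd1. By limma 6 genes in all passed in this comparison, and none of the 10 had an unadjusted p under 0.05. In irradiated non-B cells Gzmb was lower in Trp53-/- than in Trp53+/+ samples, 1 of 10 genes where 20.6% of all genes were called. The log2 difference was -1.06 ± 0.17, 2.08-fold, with an adjusted p of 0.00122. This call held in each of the other settings tried, over values from -1.26 to -0.86 and adjusted p from 9.94e-04 to 0.0432, including the one without the libraries that stood apart (-0.88, adjusted p = 0.0432). Of the other 9 genes, 6 were on the lower side in Trp53-/- samples and Prf1, Klrd1 and Eomes on the higher side.

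Many markers of other cells differed in the same comparison of irradiated non-B samples. In Trp53-/- samples 9 of 13 T cell markers were higher (median 0.73) and none lower, while 5 of 5 megakaryocyte and platelet markers (median -1.66) and 5 of 8 monocyte and macrophage markers (median -0.74) were lower and none higher. Of 33 NK receptors and adaptors 11 were lower and 1 was higher, with a median of -0.49. Erythroid markers were higher for 3 of 10 and B cell markers for 2 of 8. These calls are from the fit with all libraries. Many of them were not made without the libraries that stood apart, which left 1 irradiated Trp53+/+ sample. In that reduced fit the medians kept these directions. They were 0.98 for T cell, -1.23 for megakaryocyte and -0.97 for monocyte markers and -0.24 for receptors and adaptors. Of the 33 receptors and adaptors, 12 were then above 0, against 6 with all libraries. For erythroid markers the median was then 1.57, and for B cell markers 0.22. The part of these markers in the difference of Gzmb was not tested.

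In B cells the levels were low and replicates of a group spread widely, as for Klre1, at 13.5 and 3.78 RPKM in the unstressed Trp53-/- samples. In irradiated Trp53+/+ B cells none of 10 was called against unstressed ones, where 24.7% of 13821 genes were called. Prf1 was at 9.70, 7.99, 9.08 and 10.7 RPKM in unstressed and at 4.26, 6.64, 7.31 and 6.91 RPKM in irradiated samples, so that all 4 irradiated samples lay below all 4 unstressed ones. This pattern was shown by Prf1 alone among the 10, and by 23.3% of all genes. Its log2 fold change of -0.56 ± 0.22 had an adjusted p of 0.0452 and missed the fold threshold of 0.58. The other 9 genes had adjusted p of 0.183 or more. Without the unstressed replicate 2 (-0.63) or the irradiated replicate 3 (-0.64) Prf1 passed the threshold as well, with adjusted p of 0.0484 and 0.0426. It was -0.37 with an adjusted p of 0.232 without the libraries that stood apart.

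In Trp53-/- B cells none of 10 was called for IR, where 24.3% were, and the difference of the responses between genotypes was called for none of 10, where 12% were. The summed level of the 10 genes was 139.1 and 69.8 RPKM in the unstressed and 52.7 and 102.8 RPKM in the irradiated samples. Samples of the same group thus differed by about as much as samples of different groups. The summed T cell markers were at 120.3, 71.9, 57.5 and 87.9 RPKM in the same order, and their part in the levels of the effector genes was not tested. Without the irradiated replicate 2, Klrd1 (-1.14, adjusted p = 0.024), Nkg7 (-1.31, adjusted p = 0.0138) and Prf1 (-1.03, adjusted p = 0.0222) were called for IR and Nkg7 (1.45, adjusted p = 0.0325) for the difference, and without the unstressed replicate 2 Klrd1 was called for IR (-1.09, adjusted p = 0.0473).

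Between genotypes in unstressed B cells none of the 10 genes was called, where 0.0506% of all genes were. By limma 7 genes in all passed there, and none of the 10 had an unadjusted p under 0.05. In irradiated B cells 1 of 10 was lower in Trp53-/- samples, Nkg7, where 17.0% of all genes were called. Nkg7 was at 15.7, 23.0, 23.0 and 17.3 RPKM in Trp53+/+ and at 5.02 and 13.6 RPKM in Trp53-/- samples, which did not overlap. The log2 difference of -1.18 ± 0.34 had an adjusted p of 0.0158. It rested on the irradiated Trp53-/- replicate 1, without which it was -0.50 with an adjusted p of 0.303 (-1.86 without replicate 2), while without the libraries that stood apart it was -1.21 with an adjusted p of 0.0471, and the same replicate had the lowest summed level of the 10 genes of all 24 samples. Finally, the response to IR in Trp53+/+ mice was compared between B and non-B cells, and the difference was called for none of the 10 genes, where 18.8% of 14598 genes were called. Here the differences (B minus non-B) ran from -0.29 ± 0.26 for Prf1 to 0.51 ± 0.31 for Eomes.

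Among genes of related function, 6 of 69 (8.70%) passed the test for IR in Trp53+/+ non-B cells, close to the 9.85% of all genes. With the libraries that stood apart left out, 1 of 69 did, Xcl1, where 2.35% of all genes did. Of 33 tested NK receptors and adaptors 2 rose and none fell, and the median was 0.11. Both encode lectin-like receptors next to Klrb1c in the family. Klrb1b, an inhibitory member, was at 4.15, 5.71, 9.25 and 8.35 RPKM in unstressed and at 12.6, 9.79, 16.2 and 15.8 RPKM in irradiated samples, which did not overlap (0.97 ± 0.23, adjusted p = 0.016). Klrb1a was at 6.31, 6.46, 10.7 and 12.8 RPKM and at 17.6, 11.7, 15.3 and 17.9 RPKM, which overlapped (0.80 ± 0.22, adjusted p = 0.03). Neither was called without the libraries that stood apart, with 0.54 (adjusted p = 0.433) for Klrb1b and 0.41 (adjusted p = 0.55) for Klrb1a. For Klrb1b the response also differed between the genotypes (1.74 ± 0.40, adjusted p = 0.0259; 1.31 and 0.196 without those libraries), and in Trp53-/- samples it was at 9.66 and 11.3 RPKM before and 5.52 and 6.35 RPKM after IR. The highest receptor and adaptor genes, Fcer1g (0.27), Tyrobp (0.03) and Il2rb (-0.05), which are shared with myeloid or T cells, did not pass.

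None of 17 other genes of granules, degranulation and death ligands passed both thresholds (median 0.06), although Ctsw, Rab27a, Lyst and Fasl had adjusted p of 0.0306, 0.0213, 0.0329 and 0.0372 below the fold threshold (log2 fold changes -0.53, 0.57, 0.24 and 0.55; chosen after their values were seen, except Ctsw). Ctsw, a cathepsin gene of NK and CD8 T cells, was at 64.8, 70.3, 93.5 and 100.6 RPKM and after IR at 62.1, 45.7, 59.1 and 57.9 RPKM. Srgn, which encodes the proteoglycan core of granules, and Lamp1, a lysosomal membrane gene, lay at 0.17 and 0.02.

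Of 10 transcription factors 1 rose, Nfil3, which NK cells need to develop. It was at 24.04, 21.3, 10.6 and 12.3 RPKM in unstressed and at 37.1, 31.3, 32.5 and 25.3 RPKM in irradiated samples (0.94 ± 0.26, adjusted p = 0.0303), which did not overlap. Its change was of the same size (0.94) but was not called (adjusted p = 0.301) without the libraries that stood apart. The unstressed non-B levels of Nfil3 were higher in replicates 1 and 2, as were the erythroid markers. Nfil3 also rose with IR in Trp53+/+ B cells (1.80 ± 0.25, adjusted p = 6.43e-05 by limma). The other factors at high level in non-B cells, Ets1 (-0.06), Id2 (0.18) and Runx3 (-0.41), did not pass there.

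The 9 chemokine and migration genes held 3 that fell and none that rose. Cxcr3, the receptor for interferon-induced chemokines, was at 29.1, 29.9, 29.5 and 33.7 RPKM and after IR at 22.7, 17.2, 17.9 and 20.1 RPKM (-0.64 ± 0.13, adjusted p = 0.00642). Xcl1, the lymphotactin gene, was at 15.1, 14.4, 14.4 and 18.8 RPKM and after IR at 9.71, 6.73, 8.65 and 10.7 RPKM (-0.79 ± 0.15, adjusted p = 0.00569). Neither gene's groups overlapped. Gpr56, an adhesion receptor gene, was at 13.6, 11.04, 5.70 and 5.70 RPKM and after IR at 4.43, 2.83, 3.24 and 3.54 RPKM (-1.16 ± 0.36, adjusted p = 0.0448). Its unstressed levels were higher in replicates 1 and 2, as were the erythroid markers. Without the libraries that stood apart Xcl1 was still called (-1.15, adjusted p = 0.0356), while Cxcr3 (-0.81, adjusted p = 0.0863) and Gpr56 (-1.42, adjusted p = 0.274) were not.

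In Trp53-/- non-B cells, 1 of the 33 receptors and adaptors fell, where 0.442% of all genes were called. This was Klrg1 (-1.001 ± 0.15, adjusted p = 0.0262), an inhibitory receptor gene named after its values were seen. In the fit without the libraries that stood apart its adjusted p was 0.0823. All 33 receptors and adaptors were below 0, with a median of -0.41. The difference between genotypes was called for 4 of these 33 (12.1%, against 6.55% of all genes), all higher in Trp53+/+ cells, with 30 of 33 above 0 and a median of 0.75. Beside Klrb1b these were Il18rap (1.24 ± 0.19, adjusted p = 0.00422), a chain of the interleukin 18 receptor, Klrb1f (0.95 ± 0.20, adjusted p = 0.0189) and Slamf7 (0.68 ± 0.14, adjusted p = 0.0191), all 3 named after their values were seen. Without the libraries that stood apart Il18rap was still called (1.11, adjusted p = 0.0176), while Klrb1f (0.71, adjusted p = 0.153) and Slamf7 (0.79, adjusted p = 0.0649) were not. Il18rap was at 33.2, 32.5, 34.5 and 35.5 RPKM in unstressed and at 58.3, 43.4, 52.4 and 39.2 RPKM in irradiated Trp53+/+ samples, and at 36.8 and 35.1 and then 19.7 and 22.5 RPKM in Trp53-/- samples. Its irradiated samples thus lay above all unstressed ones in Trp53+/+ and below them in Trp53-/- cells.

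Markers of other cells moved in the same comparisons. In Trp53+/+ non-B cells 13 of 13 T cell markers were below 0 after IR (median -0.44), and 3 of them fell, Thy1 (-0.98), Cd8a (-0.61) and Cd8b1 (-0.58). Of 10 erythroid markers 7 fell (median -2.74), 1 of 8 monocyte and macrophage markers rose, Cd14 (1.77), 1 of 8 B cell markers fell, Blk (-0.90), and none of 8 neutrophil or 5 megakaryocyte and platelet markers passed. Without the libraries that stood apart Thy1 (-1.13, adjusted p = 0.0455) and 1 erythroid marker were still called, and Cd8a, Cd8b1, Cd14 and Blk were not (adjusted p of 0.0797, 0.0664, 0.181 and 0.549). In Trp53-/- non-B cells none of 13 T cell markers passed and their median was -0.01. Here the megakaryocyte and platelet markers were all 5 below 0 (median -1.16), and 1 of them fell, Ppbp (-1.58 ± 0.20, adjusted p = 0.0176), a platelet chemokine gene. Their summed level was 49.3 and 65.2 RPKM before and 17.1 and 26.2 RPKM after IR. Of 8 monocyte and macrophage markers 7 were below 0 (median -0.39), as were all 10 erythroid markers (median -0.33), and none of these passed. The difference between genotypes was positive for 5 of 5 megakaryocyte markers (median 0.94; 2 called) and 8 of 8 monocyte markers (median 0.68; 1 called). It was negative for 13 of 13 T cell (1 called), 10 of 10 erythroid (1 called) and 8 of 8 B cell markers (none called). These calls are from the fit with all libraries. Without those that stood apart, which left 1 irradiated Trp53+/+ sample, the median difference was 0.71 for megakaryocyte and 0.88 for monocyte markers. It was then -0.73 for T cell, -2.57 for erythroid and -0.21 for B cell markers, and 6 of 8 B cell markers were below 0. The part of these markers in the results of the effector genes was not tested.

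Since both kinds of cells share the fraction, the summed level of the 10 genes was set against that of the 13 T cell markers in each non-B sample. In Trp53+/+ samples this ratio was 61.1%, 61.9%, 58.6% and 66.6% before and 80.9%, 79.6%, 77.5% and 78.2% after IR. In Trp53-/- samples it was 55.8% and 59.99% before and 42.1% and 37.9% after. The ratio was thus higher in each irradiated than in each unstressed Trp53+/+ sample, and lower in Trp53-/- ones. The parts of the ratio differed. In Trp53+/+ samples the summed effector genes were at 374.5, 396.8, 529.1 and 593.3 RPKM before and at 454.3, 370.8, 476.5 and 480.1 RPKM after IR, which overlapped, and the T cell markers were at 613.4 to 902.4 RPKM before and 465.8 to 614.8 RPKM after. In Trp53-/- samples the effector genes were at 563.8 and 507.1 RPKM before and at 347.9 and 398.3 RPKM after, while the T cell markers overlapped, at 1010 and 845.3 and at 826.5 and 1050 RPKM. Taken singly against the T cell markers, 5 of the 10 genes had all irradiated above all unstressed Trp53+/+ samples, where 27.3% of all genes did, and the mean was higher for 9, all but Eomes. In the 1 irradiated Trp53+/+ library that did not stand apart, replicate 2, the ratio of the sums was also above all unstressed samples, 6 of the 10 genes were above them singly, where 75.0% of all genes were, and the summed effector genes were below all unstressed samples. In Trp53-/- samples all 10 were below, where 16.8% of all genes were. Against Cd3e alone in place of the 13 markers, the mean was higher in irradiated Trp53+/+ samples for 7 of the 10 genes, 2 of them without overlap and 1 without overlap the other way, and lower in Trp53-/- samples for all 10, 9 of them without overlap. For the ratio to Cd3e the share of all genes with these patterns is not given, so these counts have no background.

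**Figure D4:**
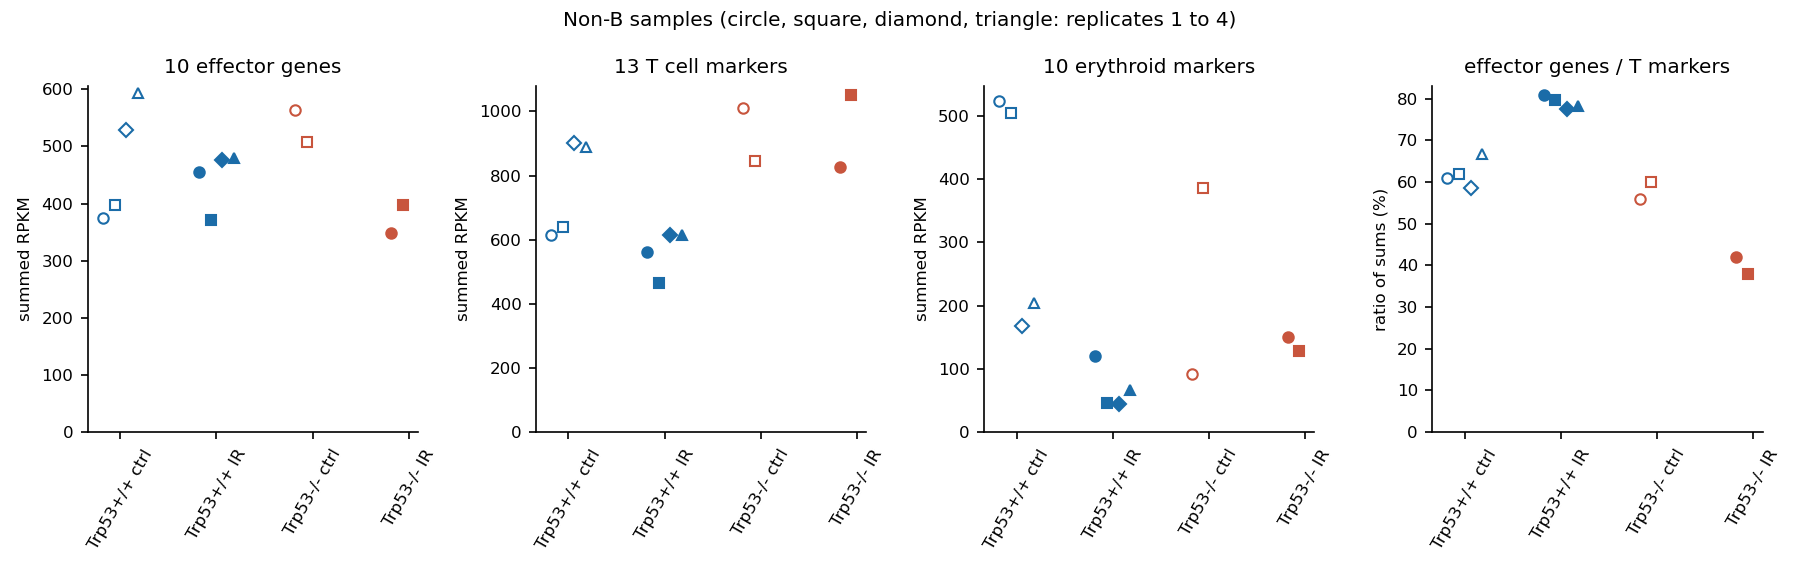
Summed RPKM of the 10 effector genes, 13 T cell markers and 10 erythroid markers, and the ratio of the effector genes to the T cell markers in percent, in each non-B sample, with symbols for the replicate number, open for unstressed and filled for irradiated. The ratio lies at 77.5% to 80.9% in irradiated Trp53+/+ samples, above their unstressed samples, and at 37.9% and 42.1% in irradiated Trp53-/- samples, below theirs.

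How far the 10 genes varied together was described by Pearson's r of each with the mean log2(RPKM + 0.5) of all 10, which contains the gene itself, over the 12 non-B samples. The samples share their group, library and cell makeup. Ncr1 (0.98), Klrk1 (0.95) and Klre1 (0.95) were closest to the mean, Nkg7 (0.66) and Gzmb (0.48) farthest from it. The other 5 genes lay between these. Of 14008 other genes, those with the pattern most like the mean were Tshz3 (0.97), Arl4d (0.96), Zfp831 (0.96), Zer1 (0.95) and Helz (0.94), of which Tshz3 had a mean of 1.75 RPKM. Over the 8 Trp53+/+ samples alone Helz ranked 3rd and Arl4d 6th, while Tshz3, Zfp831 and Zer1 ranked 26th, 43rd and 13th. The median r was 0.55 over 33 NK receptors and adaptors, 0.52 over 5 megakaryocyte and platelet markers and 0.45 over 13 T cell markers. It was 0.33 over 10 other transcription factors, 0.29 over 17 genes of granules and death ligands and 0.27 over 9 chemokine and migration genes. The value was -0.10 over 8 B cell, -0.11 over 8 monocyte and macrophage, -0.58 over 8 neutrophil and -0.05 over 10 erythroid markers, and -0.01 over all genes.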

How the data were processed

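RNA of the 24 samples had been DNase-treated, depleted of ribosomal RNA and sequenced without strand marking. Per the study's methods, the authors mapped reads with TopHat on the mm9 genome, removed all but 1 copy of duplicated reads and used featureCounts to count them by gene. The deposited RPKM values were scaled to reads on exons. The submitters' processing notes name TopHat2 2.0.8 and featureCounts 1.4.5. Values log2(RPKM + 0.5) were tested with limma 3.58.1 in R 4.3.3, with trend, in 3 fits (non-B, B, and all Trp53+/+ samples), for genes above 1 RPKM in at least 1 Trp53+/+ sample of the fit. P-values were adjusted over all genes of the fit. Depth was estimated from the steps of low values and is approximate, so no count test was run. Whether samples are separate animals is not in the labels, and p-values measure the spread between samples. Members and lists were chosen with earlier results of these data known. Beside the 10 genes, each list's 3 genes of highest unstressed non-B level, up to 3 called for IR in each direction, the 5 genes most like the members, and Trp53, Cdkn1a and Mdm2 were named. Same-numbered Trp53+/+ non-B samples deviated together (r = 0.16 to 0.33), Trp53-/- ones oppositely (-0.264). The alternatives were other pseudocounts, filters, scalings, thresholds, blocks, a receptor covariate and left-out libraries. The result for 1 gene is not reported here.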

Additional observations from a re-analysis of the deposited data

Results flagged for a closer look

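Among 40 groups of 4 samples examined for the 10 genes, 2 held a sample far from the others, by Dixon's test. Chance gives about 1 in 20, which is the share seen here. Gzma was at 19.451 RPKM in replicate 2 of unstressed Trp53+/+ B cells, against 29.8 to 30.9 RPKM in the other 3. Prf1 was at 31.154 RPKM in replicate 2 of irradiated Trp53+/+ non-B cells, against 42.7 to 43.7 RPKM in the other 3. Here the other 3 are the libraries that stood apart by their receptor genes, and replicate 2 did not.

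The response of Gzmb to IR in non-B cells differed between genotypes by a log2 difference of 1.0 (Trp53+/+ minus Trp53-/-), by limma's test of the difference. The ratio of the summed effector genes to the summed T cell markers moved in opposite directions, by 17.0 percentage points in Trp53+/+ and by -17.9 in Trp53-/- non-B samples, with all irradiated samples beyond all unstressed ones in each. This difference was not tested. In Trp53+/+ samples the mean summed effector genes were at 473.4 RPKM before and 445.4 RPKM after IR, and the T cell markers at 761.7 and 564.0 RPKM. Replicates 1, 3 and 4 of these irradiated samples stood apart by their receptor genes. In replicate 2, 6 of the 10 genes taken singly had a ratio above all unstressed samples, where 75.0% of all genes did.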

How the results depend on the processing

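The 10 calls between B and non-B cells were made under every alternative. All other counts of called genes among the 10 are given here where they moved.

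With the replicate block, and also with the Trp53-/- numbers crossed, a block chosen after seeing the data, 1 gene in place of 0 was called for IR in Trp53+/+ non-B cells and 2 in place of 1 for the difference between genotypes. With the block set within each genotype, also chosen after seeing the data, 0 were called for IR and 1 for the difference, which was Klrb1c in place of Gzmb, as it was with replicates 3 and 4. The block joining both genotypes left 0 in place of 1 in irradiated B cells between genotypes, and with crossed numbers 1 was called for IR in Trp53-/- non-B and 1 in Trp53-/- B cells. The receptor covariate left 0 for the difference in non-B cells and 0 for genotypes in irradiated B cells. Replicates 1 and 2 alone gave 4 for the difference and 0 for irradiated B cells, and replicates 3 and 4 gave 1 for IR in each genotype of non-B cells, 2 between irradiated non-B genotypes and 0 for irradiated B cells. Median-ratio scaling gave 2 between irradiated non-B genotypes. A threshold of 1, or leaving out the 5 libraries, chosen after seeing the data, left 0 for the difference. In Trp53+/+ B cells 1 was called for IR with no fold threshold or a pseudocount of 0.1. Leaving out 1 library gave 0 to 1 for IR in Trp53+/+ non-B cells, 0 to 1 for the difference in non-B cells, 1 to 2 between irradiated non-B genotypes, 0 to 1 for IR in Trp53+/+ B cells, 0 to 3 in Trp53-/- B cells, 0 to 1 for the difference in B cells and 0 to 1 between irradiated B genotypes. The causes were not tested.

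Single log2 changes near 0 turned. For IR in Trp53+/+ non-B cells, replicates 1 and 2 gave 0.03 for Gzma and 0.08 for Klrk1. The covariate gave -0.01 for Klrb1c and -0.26 for Klre1, replicates 3 and 4 gave -0.05 for Nkg7 and -0.08 for Klre1, and without the 5 libraries Klrb1c was -0.07, Nkg7 -0.03 and Klre1 -0.36. For the difference, the covariate gave -0.10 for Prf1, -0.01 for Klrd1 and -0.12 for Eomes, replicates 3 and 4 gave -0.06 for Prf1 and -0.03 for Eomes, and without the 5 libraries Prf1 was -0.24 and Eomes -0.38. Leaving out 1 library gave -0.23 to 0.08 for Klrk1 and -0.13 to 0.14 for Klre1, and for the difference -0.10 to 0.31 for Prf1 and -0.01 to 0.33 for Eomes.

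Over all genes, 1381 were called for IR in Trp53+/+ non-B cells, against 511 with the covariate and 321 without the 5 libraries, and 918 for the difference, against 397 and 191. Depth is estimated only, and groups of 2 Trp53-/- samples limit the precision.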
